A study of Mus musculus with 6 samples.

Results

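The D cyclins *Ccnd1*, *Ccnd2* and *Ccnd3*, their kinases *Cdk4* and *Cdk6*, and the CDK inhibitors *Cdkn1a* (p21), *Cdkn1b* (p27), *Cdkn2c* (p18) and *Cdkn2d* (p19) were compared between mouse splenic T cells that were CD4+Lrig1+ or CD4+Lrig1-. These 9 genes were chosen by symbol, out of 45777 genes in the tables, and their estimated read counts were summed over 22 RefSeq transcripts. CD4+ T cells from 7-week-old female C57BL/6 mice, an inbred strain for which the labels name no allele and no treatment, had been separated by flow cytometry into cells with and without Lrig1, a leucine-rich repeat protein of the cell surface. The labels give 3 samples per group. The data used here are 2 CD4+Lrig1+ and 2 CD4+Lrig1- libraries, held as 1 library of each group in each of 2 tables, called set 1 and set 2 here. Nothing in the labels says whether the libraries came from separate animals, so the p-values concern the spread between these libraries only, which may be technical. The tests estimate each gene's spread partly from all genes tested, not from that gene's libraries alone.

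D cyclins are made when a resting cell receives growth signals. They bind CDK4 or CDK6, and the complex phosphorylates the retinoblastoma protein Rb, which releases E2F transcription factors and lets the cell pass from G1 into S phase. INK4 proteins such as p18 and p19 bind CDK4 and CDK6 directly and keep the cyclin away, whereas the Cip/Kip proteins p21 and p27 bind cyclin and kinase together and chiefly restrain CDK2. In the T cell lineage, cyclin D2 and cyclin D3 are the main D cyclins, CDK6 is an important partner, and p27 and p18 are known brakes on the entry of resting T cells into division.

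The 9 genes did not move together. Within both sets, CD4+Lrig1+ T cells held less *Ccnd1*, *Ccnd3* and *Cdkn2d* and more *Cdk4*, *Cdk6* and *Cdkn2c*. The log2 ratio between the groups (CD4+Lrig1+ over CD4+Lrig1-) was -2.96 in set 1 and -1.92 in set 2 for *Ccnd1*, and 0.99 and 0.95 for *Cdkn2c*. *Ccnd2*, *Cdkn1a* and *Cdkn1b* had ratios nearer to 0 or wide counting intervals. None of the 9 genes passed edgeR's quasi-likelihood test at an adjusted p of 0.05 without a term for the set, nor did any other gene (0%), and 6 of 9 passed with that term, as did 27.4% of all genes tested.

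RefSeq's promoter table for GRCm38.p6 matched 7 of the 9 genes with 10 start sites, and *Ccnd1* and *Ccnd2* were not among them. The 250 bases before 6 of those starts are shown 5′ to 3′. *Ccnd3*, *Cdk6* and *Cdkn2c* were included because the counts below are split by their starts. *Cdk4*, *Cdkn2c* and *Cdkn2d* were included because they differed between the groups within both sets. Of the *Cdkn2c* starts, only the upstream is shown. The windows are chr17:47504801-47505050 (+) for the distal and chr17:47593217-47593466 (+) for the proximal start of *Ccnd3*, chr10:127063285-127063534 (+) for *Cdk4*, chr5:3343643-3343892 (+) for the downstream start of *Cdk6*, chr4:109666757-109667006 (-) for the upstream start of *Cdkn2c* and chr9:21291210-21291459 (-) for *Cdkn2d*. In the windows of *Ccnd3*, *Cdk4* and *Cdk6*, capitals mark the E-box CACGTG, which Myc and Max bind, or the forkhead motif GTAAACA, which Foxo factors bind, on either strand. In the windows of *Cdkn2c* and *Cdkn2d*, capitals mark the GC box GGGCGG on either strand.
Ccnd3 distal start: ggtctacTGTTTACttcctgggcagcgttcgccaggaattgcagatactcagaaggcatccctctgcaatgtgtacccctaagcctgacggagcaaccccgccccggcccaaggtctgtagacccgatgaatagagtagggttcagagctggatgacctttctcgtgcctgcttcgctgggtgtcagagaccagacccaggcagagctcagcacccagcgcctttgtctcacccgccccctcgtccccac
Ccnd3 proximal start: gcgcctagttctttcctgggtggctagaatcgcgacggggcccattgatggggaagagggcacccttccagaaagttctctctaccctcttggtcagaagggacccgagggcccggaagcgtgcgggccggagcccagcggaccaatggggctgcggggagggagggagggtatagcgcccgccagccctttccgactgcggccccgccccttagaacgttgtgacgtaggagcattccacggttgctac
Cdk4: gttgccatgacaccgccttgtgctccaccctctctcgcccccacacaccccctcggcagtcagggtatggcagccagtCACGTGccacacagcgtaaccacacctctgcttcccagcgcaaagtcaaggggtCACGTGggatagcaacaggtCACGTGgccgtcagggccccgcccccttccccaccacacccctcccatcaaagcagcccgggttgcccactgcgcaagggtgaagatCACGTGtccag
Cdk6 downstream start: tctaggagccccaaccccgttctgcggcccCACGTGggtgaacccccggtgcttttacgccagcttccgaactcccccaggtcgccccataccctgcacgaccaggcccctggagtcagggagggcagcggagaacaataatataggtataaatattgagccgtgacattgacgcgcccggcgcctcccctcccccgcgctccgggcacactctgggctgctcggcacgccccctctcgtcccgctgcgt
Cdkn2c upstream start: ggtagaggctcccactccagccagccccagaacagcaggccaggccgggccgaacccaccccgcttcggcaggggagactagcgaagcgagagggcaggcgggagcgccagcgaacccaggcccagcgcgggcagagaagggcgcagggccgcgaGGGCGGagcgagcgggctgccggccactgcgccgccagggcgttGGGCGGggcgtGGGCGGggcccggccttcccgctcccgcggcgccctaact
Cdkn2d: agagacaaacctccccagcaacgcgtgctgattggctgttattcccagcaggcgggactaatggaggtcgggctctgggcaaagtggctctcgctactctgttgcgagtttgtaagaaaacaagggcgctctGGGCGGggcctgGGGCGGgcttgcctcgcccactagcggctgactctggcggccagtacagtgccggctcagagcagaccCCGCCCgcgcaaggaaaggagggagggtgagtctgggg

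The *Cdk4* window held 4 E-boxes, which began 172, 118, 98 and 11 bases before the start. Of all 32851 RefSeq windows of this length, 6.02% held at least 1 E-box and 7 windows (0.0213%) held 4 or more. The window of the downstream *Cdk6* start held 1 E-box. The upstream *Cdk6* start, with 65.5% to 100% of the estimated *Cdk6* counts per library, had no window. The distal *Ccnd3* window held 1 forkhead match, a motif found in 3.17% of all windows. The proximal *Ccnd3* window held neither an E-box nor a forkhead match. The E2F letters TTTCGCGC and TTTGGCGC, on either strand, were found in 0.655% of all windows and in 0 of the 10 windows of these genes. The GC box lay in 7 of those 10 windows against 32.7% of all windows. The upstream *Cdkn2c* window and the *Cdkn2d* window held 3 matches each, and the downstream *Cdkn2c* window, not shown, held 0. GC boxes also lay, unmarked above, in the windows of *Ccnd3* (2 distal, 1 proximal) and *Cdk4* (1). No match overlapped a match of another motif (0 overlaps). These matches describe the letters only, and no binding was measured here.

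The libraries held 44865070 to 59977951 estimated counts, and 16123 genes passed edgeR's filter on low counts, all 9 genes described here among them. *Lrig1* itself was at 221 and 129 CPM in the CD4+Lrig1+ libraries of set 1 and set 2 against 75.4 and 36.7 CPM in the CD4+Lrig1- libraries, where CPM are counts scaled to the library size after TMM normalization. *Foxp3*, the transcription factor of regulatory T cells, was at 589 and 615 CPM against 48.9 and 30.7 CPM. The summed level of 8 regulatory T cell markers was 2478 to 2536 CPM in CD4+Lrig1+ and 272 to 318 CPM in CD4+Lrig1- libraries, with all 8 higher in both sets. The summed level of 8 naive T cell markers was 3495 to 4136 CPM against 5960 to 8014 CPM, with all 8 lower in both sets. Both lists moved with the groups, and their part in the differences below was not tested. The 11 CD4 T cell markers summed to 5536 to 9425 CPM over the 4 libraries. The sums of 12 B cell, 8 NK cell and 10 myeloid markers lay between 41.9 and 820 CPM and were higher in set 2 than in set 1 for both groups, and none of these markers was at 0 in all libraries. In bulk RNA, fewer cells of a type and less RNA per cell cannot be told apart.

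The sets differed more than the groups did, which shapes how the comparison could be made. *Cdk6* was lower in set 2 (log2 ratio of set 2 over set 1 of -1.33, as a mean over the groups), and *Cdkn2c*, *Cdk4* and *Cdkn2d* were higher there (1.21, 0.95 and 0.87), against a median of -0.02 over all genes tested. For this reason each gene is given in every library, then as a ratio within each set with a 95% counting interval (exact, which covers counting error only), and then with edgeR's quasi-likelihood test without and with a term for the set. The model with the term has 1 residual degree of freedom and is given as an alternative. Its p-values measure how steady a ratio was between the sets, against a spread drawn largely from all genes tested. Without the term, 0 of 16123 genes were called in either direction (0%), the smallest adjusted p was 0.501, and 674 genes (4.18%) were higher and 227 (1.41%) lower at an unadjusted p under 0.05. DESeq2's Wald test without the term called 260 genes higher (1.61%) and 50 lower (0.31%), or 1.92% in all. With the term, edgeR called 2358 genes higher (14.6%) and 2056 lower (12.8%), or 27.4% in all, beside 3 higher and 3 lower of these 9. DESeq2 with the term called 11.5% higher and 12.2% lower (23.7% in all), beside 3 and 4 of the 9, and limma on log2(FPKM + 1) called 11.9% and 6.3% (18.2% in all), beside 3 and 3. Of the 9 genes, 4 were higher and 4 lower in both sets, and *Cdkn1b* changed sign, against 36.5% higher and 41.3% lower in both sets (77.7% of the same sign) over all genes tested. The groups did not overlap for 3 of the 9 genes, against 26.1% of all genes tested. The smallest p that 2 libraries against 2 allow in an exact permutation test is 0.333.

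**Figure D1:**
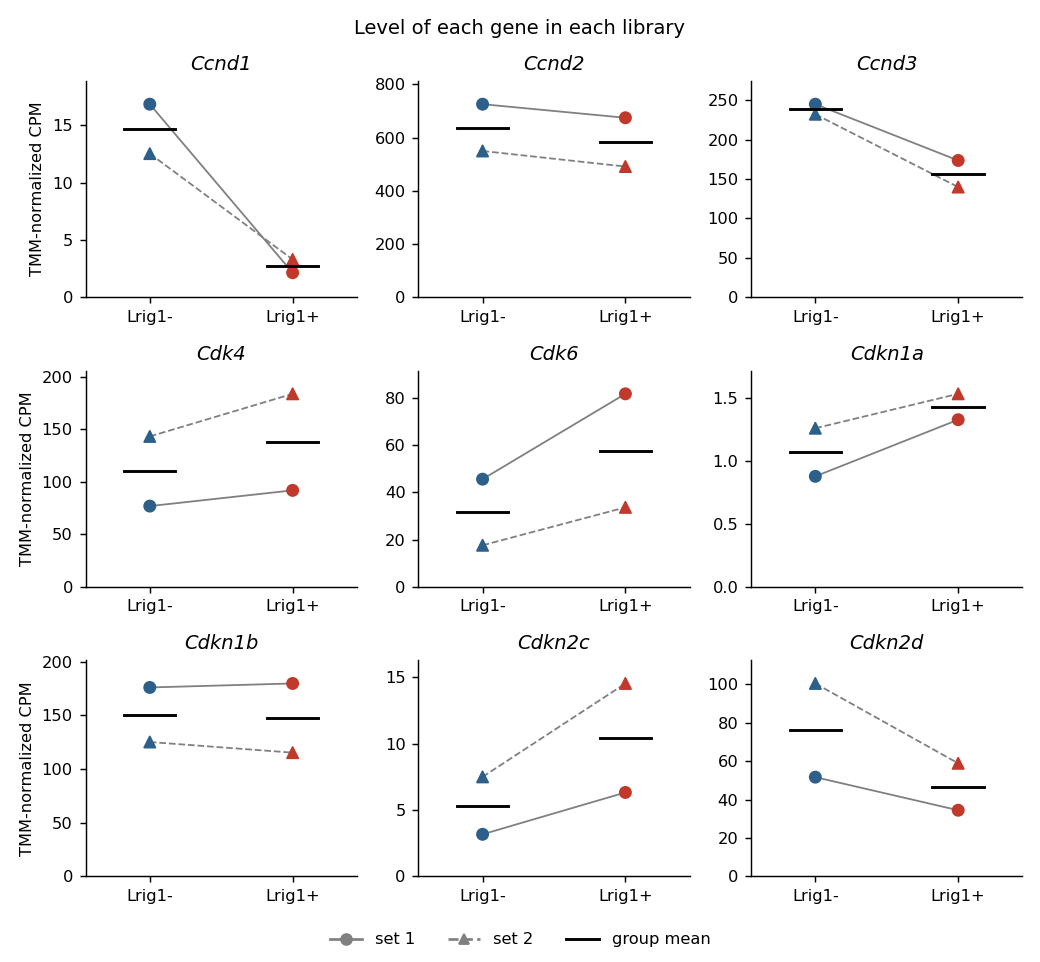
Level of each of the 9 genes in TMM-normalized CPM (vertical axes from 0), for CD4+Lrig1- and CD4+Lrig1+ T cells. Each point is 1 library, lines join the libraries of a set, and black bars are means of 2 libraries; *Ccnd1* and *Ccnd3* are lower in CD4+Lrig1+ libraries with no overlap, while *Cdk4*, *Cdk6*, *Cdkn2c* and *Cdkn2d* differ within each set but overlap across the sets.

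Cyclin D1, encoded by *Ccnd1* (gene ID 12443, chr7:144929931-144939937, minus strand, GRCm38), is the D cyclin of most non-lymphoid tissues. Its estimated counts were 111 and 189 in the CD4+Lrig1+ libraries of set 1 and set 2, and 807 and 677 in the CD4+Lrig1- libraries. In CPM these were 2.13 and 3.29 (2.71 ± 0.818, mean ± SD, n = 2) against 16.9 and 12.5 (14.7 ± 3.05, n = 2). Both libraries with Lrig1 were below both libraries without it, which held for 11.8% of all genes tested. The level was 7.78-fold lower in set 1 and 3.78-fold lower in set 2, with log2 ratios of -2.96 (interval -3.28 to -2.69) and -1.92 (-2.17 to -1.69). Only 0.341% and 2.23% of all genes tested had a lower ratio in set 1 and set 2. The log2 fold change over the 4 libraries was -2.44 (SE 0.44), and it did not pass edgeR's quasi-likelihood test (adjusted p = 0.580). It passed with the set term (adjusted p = 4.64e-04) and by DESeq2's Wald test without that term (adjusted p = 0.00402), which called none of the other 8 genes.

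Cells other than CD4+ T cells also express *Ccnd1*, and some of their markers moved with it. Of 8 NK cell markers, 7 were lower in both sets, and their sum was 41.9 and 87.0 CPM against 64.8 and 171 CPM. Of 12 B cell markers, 8 were lower in both sets, with sums of 100 and 410 CPM against 80.8 and 820 CPM, so the sum was higher in set 1 and lower in set 2. The 10 myeloid markers gave sums of 46.3 and 230 against 42.6 and 235 CPM, of which 3 were higher and 3 lower in both sets. Of 5 pDC markers, 4 were lower in both sets and none higher in both, with sums of 97.1 and 143 against 108 and 201 CPM. Both CD8 T cell markers were lower in both sets, with sums of 14.1 and 51.6 against 19.5 and 97.3 CPM. Single markers of these lists, chosen after their values were seen, reached the size of the *Ccnd1* ratio in set 2 (-1.92) but not in set 1 (-2.96). They were the pDC marker *Siglech* (log2 ratios -1.73 and -3.39) and the NK cell markers *Klre1* (-2.17 and -1.92) and *Prf1* (-1.79 and -2.20). The NK cell marker that was higher was *Eomes* (2.51 and 2.16), which was 24.1 and 41.3 CPM of the NK sum in CD4+Lrig1+ libraries. Of 6 plasma cell markers, 2 were higher and 2 lower in both sets, and of 6 erythroid markers 1 was higher and 2 lower. The part of these cells in the *Ccnd1* values was not tested.

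Cyclin D3, encoded by *Ccnd3* (gene ID 12445, chr17:47505051-47599689, plus strand), is needed for the expansion of early thymocytes. It was at 174 and 140 CPM in CD4+Lrig1+ (157 ± 23.9, SD, n = 2) against 245 and 232 CPM in CD4+Lrig1- T cells (239 ± 9.06, n = 2). Here too the groups did not overlap. The log2 ratio was -0.50 (interval -0.54 to -0.46) in set 1 and -0.73 (-0.77 to -0.69) in set 2, and 12.3% and 12.4% of all genes tested had a lower ratio. Its log2 fold change of -0.61 (SE 0.32) did not pass the quasi-likelihood test (adjusted p = 1.00) and passed with the set term (adjusted p = 0.00220).

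Cyclin D2, encoded by *Ccnd2* (gene ID 12444, chr6:127125162-127152188, minus strand), is the D cyclin that resting T cells induce upon activation. It was at 674 and 491 CPM in CD4+Lrig1+ (583 ± 130, SD, n = 2) against 725 and 549 CPM in CD4+Lrig1- T cells (637 ± 124, n = 2), and the groups overlapped. The log2 ratios were close to 0, at -0.11 (-0.13 to -0.08) in set 1 and -0.16 (-0.19 to -0.14) in set 2. The gene did not pass the quasi-likelihood test without the set term (adjusted p = 1.00) or with it (0.331), whereas DESeq2 with the set term called it lower (adjusted p = 0.0478).

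The kinase *Cdk6* (gene ID 12571, chr5:3341004-3531008, plus strand), which partners D cyclins in blood cells, differed most among the genes of the kinase pair. It was at 81.8 and 33.7 CPM in CD4+Lrig1+ (57.7 ± 34.0, SD, n = 2) against 45.6 and 17.6 CPM in CD4+Lrig1- T cells (31.6 ± 19.8, n = 2). The groups overlapped, since the CD4+Lrig1+ library of set 2 lay below the CD4+Lrig1- library of set 1. Within the sets the level was 1.79-fold and 1.91-fold higher in CD4+Lrig1+ T cells, with log2 ratios of 0.84 (0.77 to 0.92) and 0.93 (0.82 to 1.05). The adjusted p of the quasi-likelihood test was 1.00 without and 3.48e-04 with the set term.

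Its relative *Cdk4* (gene ID 12567, chr10:127063535-127067288, plus strand), the gene with the 4 E-boxes shown above, was at 91.9 and 184 CPM in CD4+Lrig1+ (138 ± 65.1, SD, n = 2) against 76.9 and 143 CPM in CD4+Lrig1- T cells (110 ± 46.9, n = 2). The difference was smaller than for *Cdk6*, with log2 ratios of 0.26 (0.19 to 0.32) and 0.36 (0.32 to 0.40), and the groups overlapped. The adjusted p of the quasi-likelihood test was 1.00 without and 0.0190 with the set term. The 2 kinases thus had the same sign in both sets, although *Cdk6* was lower and *Cdk4* higher in set 2 than in set 1.

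The INK4 inhibitors *Cdkn2c* and *Cdkn2d* went opposite ways. *Cdkn2c* (gene ID 12580, chr4:109660876-109666756, minus strand) encodes p18, and its estimated counts were 329 and 835 in CD4+Lrig1+ against 152 and 405 in CD4+Lrig1- libraries. In CPM these were 6.33 and 14.5 (10.4 ± 5.81, SD, n = 2) against 3.17 and 7.50 (5.34 ± 3.06, n = 2), so the groups overlapped across the sets. Within the sets the level was 1.98-fold and 1.93-fold higher in CD4+Lrig1+ T cells. The log2 ratios were 0.99 (0.71 to 1.28) and 0.95 (0.78 to 1.13), and 89.7% and 89.5% of all genes tested had a lower ratio. The adjusted p of the quasi-likelihood test was 1.00 without and 0.00238 with the set term.

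*Cdkn2d* (gene ID 12581, chr9:21288459-21291421, minus strand) encodes p19, the more abundant of the pair. It was at 34.4 and 58.8 CPM in CD4+Lrig1+ (46.6 ± 17.3, SD, n = 2) against 51.6 and 100.3 CPM in CD4+Lrig1- T cells (76.0 ± 34.4, n = 2). The log2 ratios were -0.58 (-0.67 to -0.50) in set 1 and -0.77 (-0.83 to -0.71) in set 2, and the groups overlapped across the sets, as the level was higher in set 2. The adjusted p of the quasi-likelihood test was 1.00 without and 0.00103 with the set term.

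Among the Cip/Kip inhibitors, *Cdkn1b* (gene ID 12576, chr6:134920401-134925525, plus strand), which encodes p27, was at 180 and 115 CPM in CD4+Lrig1+ (147 ± 45.5, SD, n = 2) against 176 and 125 CPM in CD4+Lrig1- T cells (151 ± 35.9, n = 2). Its log2 ratios had opposite signs, 0.03 (-0.01 to 0.07) in set 1 and -0.12 (-0.17 to -0.07) in set 2. The adjusted p of the quasi-likelihood test was 1.00 without and 0.724 with the set term. *Cdkn1a* (gene ID 12575, chr17:29090979-29100722, plus strand) encodes p21, a target of p53, and had few reads. Its estimated counts were 69 and 88 in CD4+Lrig1+ against 42 and 68 in CD4+Lrig1- libraries, or 1.33 and 1.53 CPM (1.43 ± 0.145, SD, n = 2) against 0.877 and 1.26 CPM (1.07 ± 0.270, n = 2). Both libraries with Lrig1 exceeded both libraries without it, which held for 14.3% of all genes tested. The interval of its log2 ratio reached from 0.02 to 1.19 in set 1 (0.58) and from -0.19 to 0.76 in set 2 (0.28), and the adjusted p of the quasi-likelihood test was 1.00 without and 0.412 with the set term. The counting interval left out 0 in set 1 and held it in set 2.

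**Figure D2:**
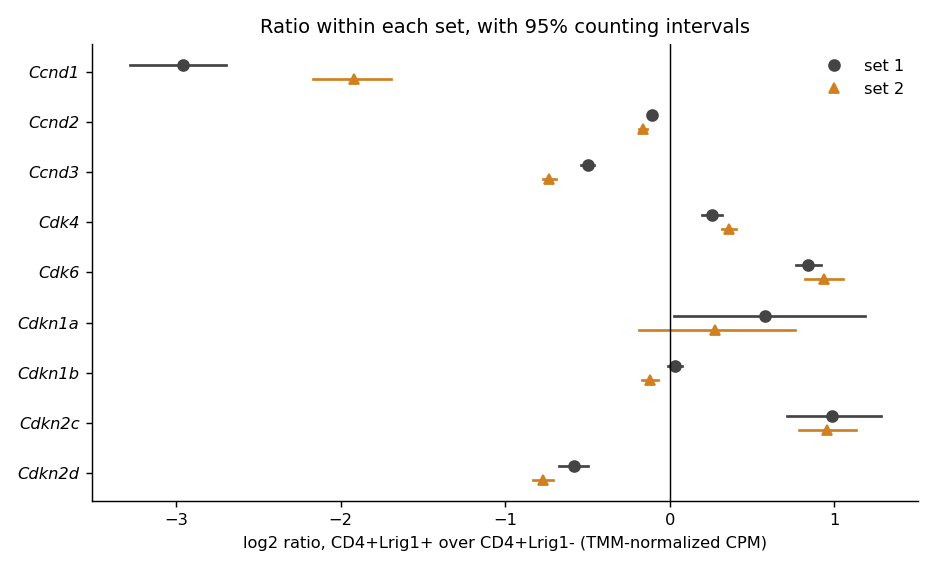
Log2 ratio between the groups, CD4+Lrig1+ over CD4+Lrig1- (horizontal axis, TMM-normalized CPM) for each gene within set 1 (circles) and set 2 (triangles), 1 library per group and set. Lines are 95% exact counting intervals. *Ccnd1* lies at -2.96 and -1.92, *Ccnd3* and *Cdkn2d* lie between -0.77 and -0.50, and *Cdk6* and *Cdkn2c* lie between 0.84 and 0.99. The intervals of *Cdkn1a* in set 2 and of *Cdkn1b* in set 1 cross 0.

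Levels of different genes were compared per length, in FPKM (fragments per kilobase, relative to all fragments mapped in that library) summed over transcripts. *Ccnd2*, *Ccnd3*, *Cdk4*, *Cdkn1b* and *Cdkn2d* were at 26.0 to 117 FPKM in all 4 libraries, and *Ccnd1*, *Cdk6*, *Cdkn1a* and *Cdkn2c* at 0.434 to 9.31 FPKM. In CD4+Lrig1+ T cells, the ranges of *Cdk4* (62.6 to 117), *Ccnd2* (71.6 to 106), *Ccnd3* (61.5 to 82.5) and *Cdkn1b* (43.3 to 71.8) overlapped from each to the next, and *Cdkn2d* lay below them (26.0 to 41.8). *Cdkn2c* (3.81 to 9.31) and *Cdk6* (2.56 to 6.58) then overlapped, followed by *Ccnd1* (0.539 to 0.783) and *Cdkn1a* (0.646 to 0.722), which also overlapped. In CD4+Lrig1- T cells, *Ccnd3* (97.2 to 117), *Ccnd2* (74.8 to 114), *Cdk4* (52.2 to 85.2), *Cdkn1b* (43.9 to 70.3) and *Cdkn2d* (39.0 to 66.7) each overlapped with the next. There *Ccnd1* (2.78 to 4.24) overlapped with *Cdkn2c* (2.11 to 4.52) and *Cdk6* (1.23 to 3.64), and *Cdkn1a* (0.434 to 0.550) was the lowest. The FPKM scales of the sets differ, so the order within a library is safer than a level across sets.

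Shares within a family do not depend on that scale. Of the summed FPKM of the D cyclins, *Ccnd2* made up 56.1% and 53.5% in CD4+Lrig1+ against 48.6% and 42.8% in CD4+Lrig1- libraries of set 1 and set 2. *Ccnd3* made up 43.7% and 45.9% against 49.6% and 55.6%, and *Ccnd1* 0.285% and 0.585% against 1.80% and 1.59%. Thus *Ccnd2* was the leading D cyclin in both CD4+Lrig1+ libraries, at 1.28 and 1.16 times *Ccnd3*. In the CD4+Lrig1- libraries that ratio was 0.980 in set 1, where the 2 genes were nearly level, and 0.770 in set 2, where *Ccnd3* led. *Cdkn2c* made up 12.8% and 18.2% of the summed FPKM of *Cdkn2c* and *Cdkn2d* in CD4+Lrig1+ against 5.12% and 6.35% in CD4+Lrig1- libraries. *Cdkn2d* exceeded *Cdkn2c* by 6.84 and 4.49 times in CD4+Lrig1+ and by 18.5 and 14.8 times in CD4+Lrig1- T cells. *Cdk6* made up 9.52% and 2.14% of the kinase pair against 6.52% and 1.43%, a share that moved more between the sets than between the groups. These shares were derived from the same values as the tests above and were not tested on their own.

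**Figure D3:**
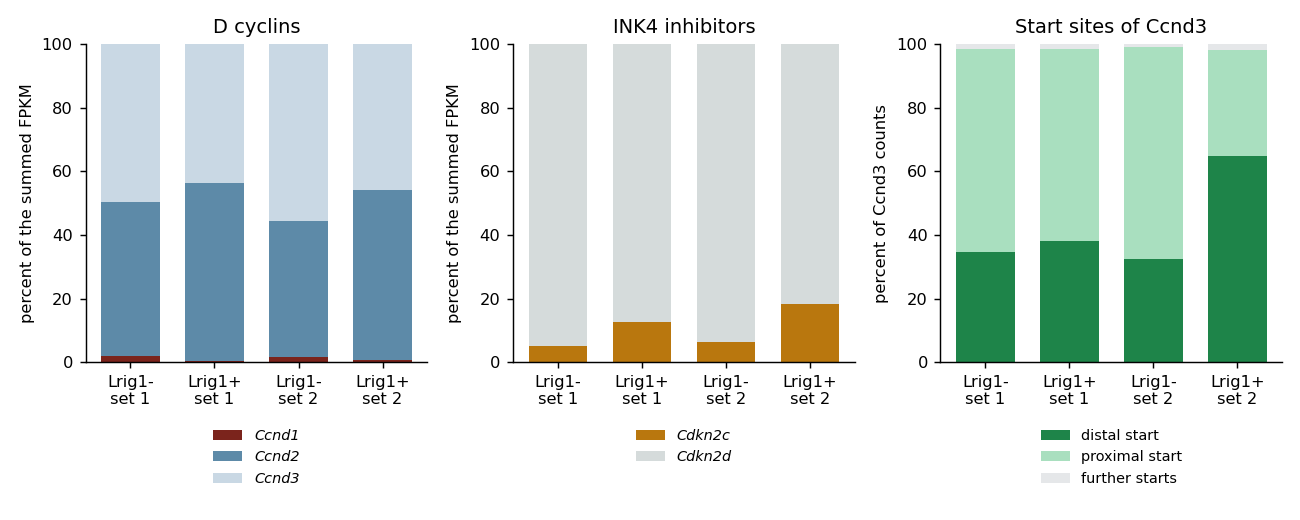
Share of each D cyclin in their summed FPKM (left), of the INK4 inhibitors *Cdkn2c* and *Cdkn2d* in the summed FPKM of these genes (middle), and of each start site in the estimated counts of *Ccnd3* (right), in percent from 0 to 100, 1 bar per library. The share of *Cdkn2c* is 12.8% and 18.2% in CD4+Lrig1+ libraries against 5.12% and 6.35% in CD4+Lrig1- libraries, and the distal start of *Ccnd3* stands out in the CD4+Lrig1+ library of set 2 (64.9%).

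The estimated counts were also divided by the start of the RefSeq transcript to which StringTie gave them. Transcripts of a gene share most of their exons, so this division is an estimate and was given no test. For *Ccnd3*, the 2 main starts lie 88416 bases apart. The proximal start was at 104.9 and 46.6 CPM in CD4+Lrig1+ against 155.9 and 155.0 CPM in CD4+Lrig1- libraries of set 1 and set 2 (log2 ratios -0.57 and -1.73). The distal start, whose window holds the forkhead letters, was at 66.1 and 90.6 CPM against 85.0 and 75.0 CPM (-0.36 and 0.27). The lower level of *Ccnd3* thus lay in the proximal start in both sets and in the distal start in set 1 only. The distal share of the *Ccnd3* counts was 38.1% and 64.9% in CD4+Lrig1+ against 34.7% and 32.3% in CD4+Lrig1- libraries, so that 1 library stood apart from the other 3.

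For *Cdk6*, the transcript that starts 2889 bases further downstream, at the window with 1 E-box, had 599 and 666 estimated counts in CD4+Lrig1+ and 2 and 0 in CD4+Lrig1- libraries. The upstream start was at 70.3 and 22.1 CPM against 45.6 and 17.6 CPM, with log2 ratios of 0.62 and 0.33, smaller than those of the whole gene. A value of 0 in this division can mean that all shared reads were given to the other transcript. For *Cdkn2c*, whose starts lie 1384 bases apart, the upstream start had 220 and 393 counts against 77 and 184, and the downstream start 109 and 442 against 75 and 221, so both starts were higher with Lrig1 in set 1 and in set 2. The *Ccnd1* transcripts start close together, at chr7:144939937 (3874 bases long) and chr7:144939925 (3796 bases long), so their division is especially uncertain. The longer had 0 counts in both CD4+Lrig1+ libraries against 164 and 56 in the CD4+Lrig1- libraries. The other had 111 and 189 against 643 and 621.

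Other genes of the G1/S machinery were read from the same fits. Of 25 tested other G1/S genes, 3 were called higher and 2 lower with the set term, against 14.6% and 12.8% of all genes tested. In both sets 16 were higher and 6 lower, against 36.5% and 41.3%, and the median log2 fold change was 0.16 against -0.04 over all genes tested. *E2f2*, an activating E2F factor, was at 61.0 and 65.2 CPM in CD4+Lrig1+ against 30.5 and 41.0 CPM in CD4+Lrig1- libraries (log2 ratios 1.00 and 0.67, adjusted p = 0.00105 with the set term). *E2f3*, of the same class, was at 15.8 and 11.4 against 10.1 and 6.52 CPM (adjusted p = 0.00469), and *Tfdp1*, which encodes the dimer partner DP1, at 62.8 and 61.3 against 41.9 and 43.5 CPM (adjusted p = 0.00257, each from edgeR's quasi-likelihood test). *Cdk2*, the kinase that acts after CDK4 and CDK6, was lower, at 44.8 and 25.3 against 54.2 and 37.7 CPM (adjusted p = 0.0190). *Cdc25a*, the phosphatase that activates CDK2, was at 24.3 and 22.8 against 28.9 and 33.4 CPM (adjusted p = 0.0286). *Rb1* was nearly level, with log2 ratios of -0.03 and 0.03. *Cdkn2b*, another INK4 gene, had 15 and 42 counts in CD4+Lrig1+ against 4 and 17 in CD4+Lrig1- libraries. Its log2 ratios were 1.43 and 1.13, and it was not called with the set term.

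Of 21 tested genes that act upstream of the D cyclins and p27 or on their turnover, 2 were called higher and 6 lower with the set term (14.6% and 12.8% of all genes tested). In both sets 7 were higher and 11 lower (36.5% and 41.3% of all genes tested), and the median log2 fold change was -0.09 against -0.04 over all genes. *Myc*, whose product binds E-boxes, was higher, at 125 and 99.9 CPM in CD4+Lrig1+ against 86.9 and 78.4 CPM in CD4+Lrig1- libraries (log2 ratios 0.52 and 0.35, adjusted p = 0.00550 with the set term). *Cks1b*, a cofactor of the ubiquitin ligase that degrades p27, was at 4.94 and 10.9 against 2.97 and 7.26 CPM (adjusted p = 0.0196). *Foxo1*, a forkhead factor that holds T cells at rest, was lower, at 337 and 376 against 423 and 508 CPM (adjusted p = 0.0158). *Klf2*, a quiescence factor that the naive T cell list also holds, was at 221 and 300.1 against 325 and 433 CPM (adjusted p = 0.00277). *Fbxl12*, an F-box gene, was at 72.3 and 23.5 against 103.8 and 35.3 CPM (adjusted p = 0.00196 from the quasi-likelihood test with the set term).

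The p53 list held p53 targets, the class to which *Cdkn1a* belongs, and *Trp53* itself. Of its 18 tested genes, 6 were called higher and 0 lower with the set term, where 14.6% and 12.8% of all genes tested were. In both sets 9 were higher and 5 lower, where 36.5% and 41.3% of all genes tested were, and the median log2 fold change was 0.11 against -0.04 over all genes. *Plk3*, a polo-like kinase gene, had log2 ratios of 0.81 and 1.10 (adjusted p = 7.55e-04), and its relative *Plk2* was at 8.50 and 3.64 CPM in CD4+Lrig1+ against 3.93 and 1.93 CPM in CD4+Lrig1- libraries (adjusted p = 0.00779). *Sesn2*, a stress-response gene, was at 13.1 and 10.9 against 8.02 and 5.70 CPM (adjusted p = 0.00414), and *Phlda3*, an inhibitor of AKT, at 1.31 and 4.54 against 0.251 and 1.11 CPM (adjusted p = 0.00293, with the set term). *Trp53* itself had log2 ratios of -0.06 and -0.05. The targets *Mdm2* (-0.07 and -0.24), *Bbc3* (-0.33 and -0.07), *Bax* (0.13 and 0.18) and *Ccng1* (0.20 and 0.08) were not called with the set term.

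Of 22 genes of S, G2 and M phase, 16 were called higher and 0 lower with the set term, beside 14.6% and 12.8% of all genes tested. In both sets 19 were higher and 0 lower, beside 36.5% and 41.3% of all genes tested. Their median log2 fold change was 0.77 against -0.04 over all genes. *Mki67*, the gene of the proliferation marker Ki-67, was at 48.8 and 7.30 CPM in CD4+Lrig1+ against 14.3 and 3.20 CPM in CD4+Lrig1- libraries (log2 ratios 1.76 and 1.18, adjusted p = 4.40e-04 from the quasi-likelihood test with the set term). *Top2a*, a topoisomerase of dividing cells, was at 33.1 and 22.2 against 14.3 and 13.0 CPM (adjusted p = 0.00137). The helicase subunit *Mcm6* was at 140 and 214 against 78.6 and 118 CPM (adjusted p = 2.25e-04), and *Mcm5* at 71.3 and 85.9 against 41.1 and 56.5 CPM (adjusted p = 8.84e-04). Like *Cdk6*, *Cdkn2c*, *Cdk4* and *Cdkn1a*, 19 of these genes had ratios between the groups above 0 in both sets. Between the sets, *Cdk6* and *Cdkn2c* moved in opposite directions (log2 ratio of set 2 over set 1 of -1.33 and 1.21). The part of dividing cells in the values of *Cdk6* and *Cdkn2c* was not tested. None of the genes in these 4 lists was called by edgeR without the set term (0 in each direction).

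**Figure D4:**
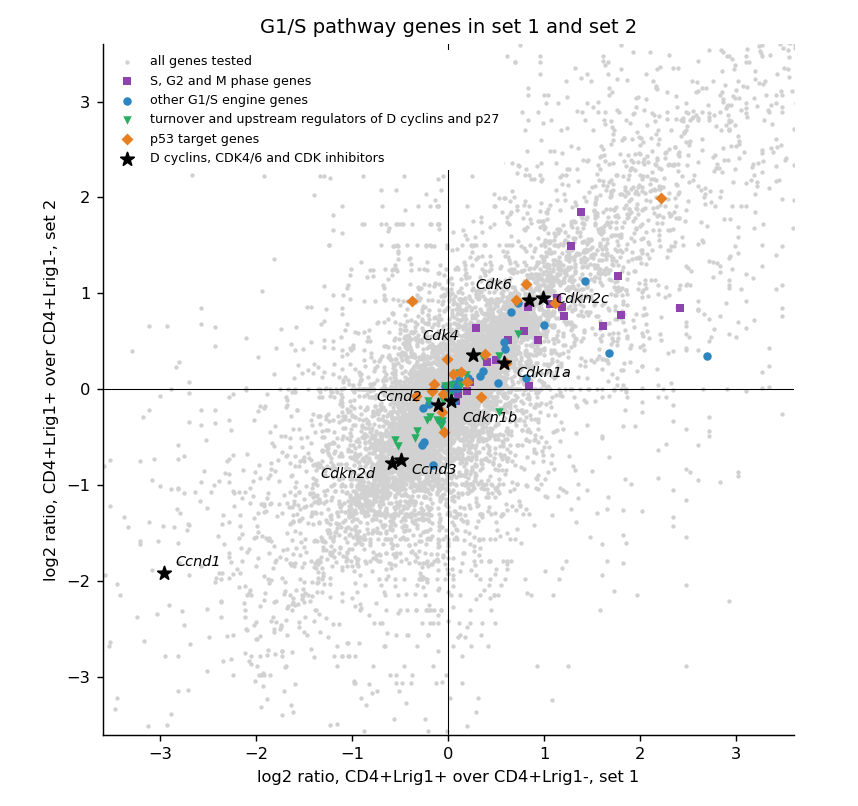
Log2 ratio between the groups, CD4+Lrig1+ over CD4+Lrig1-, in set 1 (horizontal axis) against set 2 (vertical axis), for all genes tested (grey) and for the pathway lists (colored), with the 9 genes as labelled stars. *Ccnd1* lies far in the lower left at -2.96 and -1.92, *Ccnd3* and *Cdkn2d* lie nearer to 0 on the same side, and *Cdk6* and *Cdkn2c* lie among the S, G2 and M phase genes in the upper right; 303 genes lie outside the axis limit of 3.6.

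The genes whose pattern over the 4 libraries was nearest to that of *Cdkn2c* and *Ccnd1*, the genes with the highest and lowest mean ratio of the 9, were found by Euclidean distance of centred log2 CPM among tested genes with a mean count of at least 50. Nearest to *Cdkn2c* were *Etfb* (distance 0.0877), *Smpdl3a*, *Pnp2*, *Glrx* and *Sh2d1a* (0.123). *Smpdl3a*, for example, was at 151 and 348 CPM in CD4+Lrig1+ against 70.4 and 171 CPM in CD4+Lrig1- libraries. Nearest to *Ccnd1* were *Rtn1* (0.233), *Klrc2*, *Sulf2*, *Il12rb2* and *Itgax* (0.421). *Il12rb2*, which encodes a chain of the IL-12 receptor, was at 1.67 and 1.85 against 11.7 and 9.29 CPM. *Klrc2*, a killer lectin-like receptor gene of NK cells, had log2 ratios of -2.91 and -2.25 at 0.231 and 0.313 against 1.98 and 1.63 CPM. *Itgax*, an integrin gene of dendritic cells, had log2 ratios of -2.73 and -1.47. Neither gene was in the marker lists above, and the part of such cells was not tested. With 4 libraries, this likeness is a description only.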

How the data were processed

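RNA of T cells sorted from the spleen was sequenced with a stranded mRNA kit. The submitters' processing notes list Trimmomatic 0.38, HISAT2 2.1.0, Bowtie2 2.3.4.1, StringTie 2.1.3b and GRCm38 (mm10). The authors deposited estimated counts from StringTie for each RefSeq transcript, with no normalization. The FPKM values were scaled by the authors to transcript length and mapped fragments. The TPM values were deposited by the authors beside them. Another table, with 6 value columns of 2 libraries whose names leave the Lrig1 status unclear, was left out.

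Counts, already whole numbers, were summed per gene symbol. Genes passing filterByExpr were tested in R 4.3.3 with edgeR 4.0.16 (TMM, quasi-likelihood test, two-sided, Benjamini-Hochberg adjusted p under 0.05), once without and once with the table that holds a library (the set) as a term. DESeq2 1.42.0 and limma 3.58.1 on log2(FPKM + 1) were alternatives, with other scalings, filters and pseudocounts and leaving out each library. A prior count of 2 entered each within-set ratio. The fits were run on simulated counts in which the ratio between the groups was the same in both sets. How they behave where that ratio differs between the sets was not tested.

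The deviations of the libraries from their group means correlated at 0.883 within tables, across genes. The pairing comes from the tables and not from replicate numbers. The 9 genes, the lists and the tests were chosen with earlier results of these data known. All 9 genes are named. Of each pathway list, up to 4 genes per direction with the smallest p among those called with the set term, at a mean count of at least 50, are named, except 1 that is not reported here. *Rb1*, *Trp53*, *Cdkn2b*, *Mdm2*, *Bbc3*, *Bax* and *Ccng1* were named after their values were seen. Promoter windows and motifs were read from RefSeq with Python 3.11.15.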

Additional observations from a re-analysis of the deposited data

How the results depend on the processing

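Without a set term, the counts stayed at 0 in both directions under other scalings, filters and limma. DESeq2's Wald test called 260 genes higher and 50 lower, among them 1 of the 9 genes (lower). With the replicate block (the set term), edgeR called 2358 higher and 2056 lower, DESeq2 1848 and 1969, and limma on log2(FPKM + 1) 1911 and 1016. Of the 9 genes these 3 fits called 3, 3 and 3 higher and 3, 4 and 3 lower, and of the pathway lists 27, 21 and 24 higher and 8, 9 and 4 lower. Chosen after seeing the data, the block with DESeq2's size factors called 2208 and 2388, and with library totals 3065 and 2024. Both called 3 of the 9 genes higher and 3 lower, and 25 and 32 list genes higher and 8 and 8 lower.

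Leaving out 1 library at a time, without the set term, gave 1 to 88 genes higher and 0 to 2 lower. The log2 fold change then ranged from -0.35 to 0.13 for *Ccnd2*, from -0.27 to 0.85 for *Cdk4* and from -0.36 to 0.28 for *Cdkn1b*, each reversed without the CD4+Lrig1- library of set 1 or the CD4+Lrig1+ library of set 2. A fit with 3 libraries mixes the set with the group. The range was 0.11 (without the CD4+Lrig1+ library of set 1) to 1.75 (without the CD4+Lrig1- library of set 1) for *Cdk6*. It was 0.24 (without CD4+Lrig1+ of set 2) to 1.72 (without CD4+Lrig1- of set 2) for *Cdkn2c*. It was -1.15 (without CD4+Lrig1+ of set 2) to -0.14 (without CD4+Lrig1- of set 2) for *Cdkn2d*. It was -2.79 to -2.13 for *Ccnd1*, -0.74 to -0.46 for *Ccnd3* and 0.23 to 0.71 for *Cdkn1a*.

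Under the 10 other planned settings, 86 of 90 fold changes of the 9 genes kept their direction. The 4 that did not were all of *Cdkn1b*, at 0.0194 with library totals and 0.0057 with limma (both pseudocounts, and with the block), and it was 0.0122 with the block and library totals. The cause was not tested. Each ratio within a set was recomputed with a prior count of 0.5 and on log2(FPKM + 1), which gave 36 values. Of these, 10 moved by more than their counting interval. All 10 were on log2(FPKM + 1), where *Ccnd1* gave -1.77 and -1.08. *Cdkn1a* had 42 to 88 counts per library, which sets the width of its counting intervals.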
